A study of Macaca fascicularis with 2 samples.

Results

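In the library of the scrotal testis, a rule took 144 cells as cells of early meiotic prophase. By genes outside the rule, given below, this label does not hold for 11 of them. The rule read the UMIs of each cell (unique molecular identifiers, 1 per captured RNA molecule). A barcode had to hold at least 500 detected genes and less than 5% of its UMIs from PRM1, PRM2, TNP1 and TNP2, the protamine and transition protein genes of late spermatids. The summed level of DMC1, MEIOB, SPO11 and PRDM9 had to be at least 3 per 10000 UMIs, with at least 2 of the 4 genes seen. This sum also had to exceed those of 3 other marker groups: PIWIL1, POU5F2 and MYBL1 for pachytene cells, CCNA1, AURKA and NEK2 for later spermatocytes, and ACRV1, SPACA1, SUN5 and TXNDC8 for round spermatids. The 144 cells were 0.960% of the 15001 barcodes of that library with at least 500 genes (exact 95% interval 0.810% to 1.13%, counting error only), out of 28516 barcodes in the whole series.

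The study used cynomolgus monkeys (Macaca fascicularis) in which 1 testis was placed in the abdomen (UAT) while the contralateral testis stayed in the scrotum (CST). Each position gave 1 library of droplet single-cell RNA, and the age of the animals and their number are not given in the sources used here. The labels name no strain, genotype or drug, and both testes were dissociated with collagenase II and dispase II. With 1 library per position nothing could be tested between positions, and cells of 1 library are not replicates, so all intervals below cover counting error only and no p-value is given.

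Early meiotic prophase covers leptotene and zygotene, the stages in which a germ cell that has finished its premeiotic DNA replication cuts its own DNA and pairs its homologous chromosomes. SPO11, with partner proteins, makes programmed double-strand breaks, and the histone methyltransferase PRDM9 marks where they fall. The broken ends are resected and coated by recombinases such as DMC1, which invade the homologue, while cohesins and axial proteins organise each chromosome and the synaptonemal complex zips the homologues together. In pachytene the unpaired X and Y chromosomes are silenced and enclosed in the sex body, a process called meiotic sex chromosome inactivation.

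The CST library held 15952 barcodes and the UAT library 12564, with medians of 6163 and 7266 UMIs among the kept barcodes. The members had a median of 7778 UMIs (lowest 632, highest 47345) and 3642 genes, and mitochondrial transcripts made up a median of 4.00% of their UMIs. The libraries shared 50 barcodes, of which 1 was a member. Of the 144 members, 8 (5.56%) fell among the 12.0% of CST barcodes with the highest simulated-doublet scores. Protamine and transition protein UMIs occurred in all 144 members, at a median of 23.0 per 10000, and in stromal cells of the same library they summed to 27565 counts per 1000000 UMIs (CPM) against 2445 in the members.

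Comparison classes came from the same library by analogous rules. They were 356 differentiating spermatogonia (KIT, STRA8, DMRTB1 and SOHLH2 leading), 525 pachytene cells and 2114 late spermatocytes. The spermatogonial class left out every member. The member rule set no limit on the spermatogonial sum, which exceeded the rule sum in 24 members. Ratios to spermatogonia therefore set a group that holds such cells against a class without them. Pachytene and late cells could also be in the spermatogonial class, as 4 and 101 were. A set of 2178 stromal cells, chosen by DCN, LUM, COL1A1, COL1A2 and COL3A1, gave the background of free RNA, since it should lack meiotic transcripts. The limit on protamine and transition protein UMIs was not applied to this set. Median UMIs were 11972 in the spermatogonia, 29346 in the pachytene cells, 15282 in the late spermatocytes and 4771 in the stroma. The members were 2.46% of the 5843 barcodes in any of the spermatogonial, spermatocyte and round spermatid classes, each counted once, and 5.17% of the 2783 spermatocytes.

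The values behind the choice are a description, not a finding. The sum of the 4 genes had a median of 8.96 and a maximum of 43.7 per 10000 UMIs. The lowest members stood at 3.01, 3.23 and 3.36, and the nearest cells outside the threshold at 2.93, 2.82 and 2.66, with 16 cells between 2 and 3. Most members, 90 of 144, showed 2 of the genes, 41 showed 3 and 13 showed all 4. A further 92 cells reached the level through 1 gene alone, and 60 reached it with a larger sum for another marker group, and neither set was counted.

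MEIOB, a single-strand DNA binding protein of meiotic recombination, was seen in 142 members and the strand-exchange recombinase DMC1 in 123. PRDM9 was seen in 54 members and SPO11 in 36, with 20 cells holding both. In stroma MEIOB was seen in 56 of 2178 cells, PRDM9 in 6, DMC1 in 1 and SPO11 in 0, which allows a share of up to 0.138%. These genes chose the members, so their levels over the classes follow from the choice and are given as a description. SPO11 stood at 37.0 CPM in the members, 1.12 in pachytene cells and 0 of 356 cells in spermatogonia, which allows up to 0.632 CPM. PRDM9 stood at 79.0 CPM in the members, 1.69 in spermatogonia and 0.0592 in pachytene cells, where 1 of 525 cells had a UMI.

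Genes outside the rule separated most members from spermatogonia, with a small group of exceptions. The 11 genes of the synaptonemal complex and chromosome axis had a median of 72.1 UMIs per 10000 in the members, against 9.57 in spermatogonia and 38.3 in pachytene cells. The members' lower and upper quartiles were 49.4 and 93.4. However, 11 members lay at or below 10.6 per 10000, and the next cell above them was at 28.3, a gap noticed after the values were plotted. None of those 11 had a RAD51AP2 UMI, a stromal marker sum over the limit of 20 per 10000 or a high doublet score. Their summed MKI67, a marker of proliferation, was 822 CPM against 44.9 in the other 133 members, and their DMRT1, a spermatogonial transcription factor, 832 against 149. SYCP3, an axis protein, was 225 CPM in them and 1399 in the others. Their rule sum had a median of 3.87, close to the threshold. By these genes the label does not hold for those 11 cells, and they are kept in the values below because the rule takes them in.

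**Figure D1:**
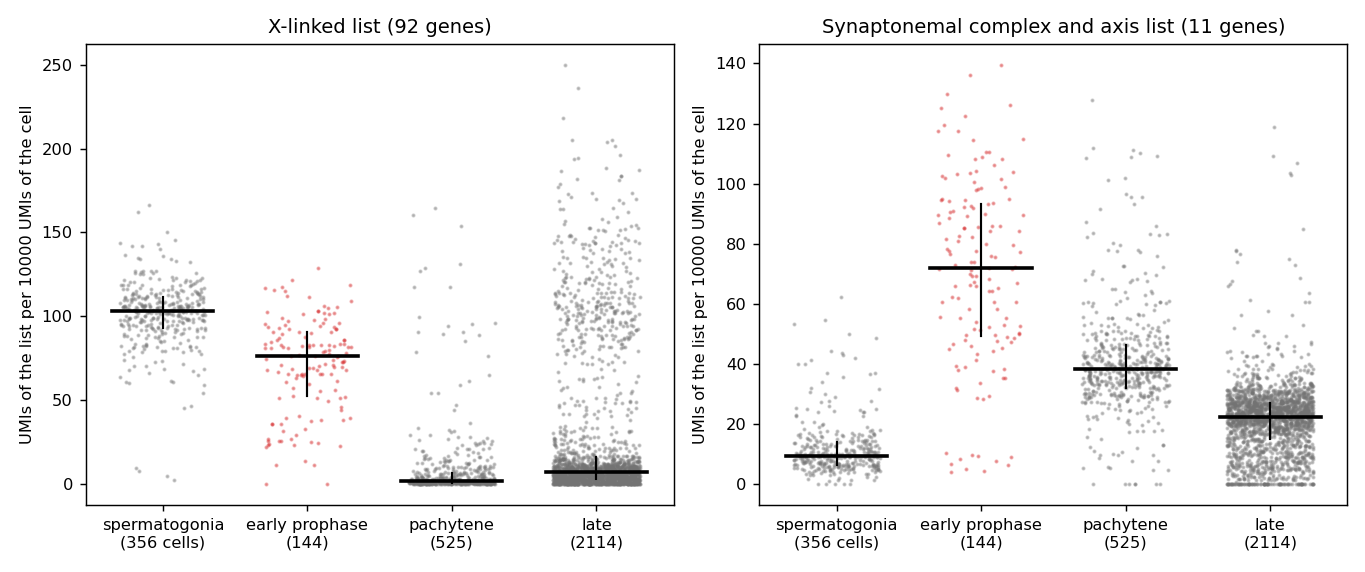
Each point is 1 cell of the scrotal library; the y axes give UMIs per 10000 UMIs of the cell for 92 X-linked genes (left) and for 11 synaptonemal complex and axis genes (right), with thick bars at the median and thin bars from the lower to the upper quartile. The early prophase cells had median levels of 76.2 for the X-linked genes and 72.1 for the complex, and the 11 members near the bottom of the right panel lay at or below 10.6.

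For the genes named below, levels are UMIs summed over a class in CPM of that class's total, and ratios carry exact binomial 95% intervals. Genes were compared where the higher class reached 20 CPM and 10 UMIs, and a difference of at least 2-fold is counted. Against differentiating spermatogonia, 8622 genes were compared, of which 1194 (13.8%) were at least 2-fold higher in the members and 1013 (11.7%) at least 2-fold lower. Against pachytene cells, 8448 genes were compared, of which 3367 (39.9%) were higher and 1524 (18.0%) lower. With each cell thinned to 2000 UMIs these counts were 1101 higher and 1445 lower against spermatogonia, and 2352 higher and 1564 lower against pachytene cells. Both splits moved towards the lower side. Thinning took the median log2 ratio of all genes from 0.48 to 0.22 against pachytene and from -0.02 to -0.15 against spermatogonia. It left 137 members, 347 spermatogonia and 492 pachytene cells, and the minimum of 10 UMIs was kept. With the fewest UMIs in the members, that minimum asked for a higher CPM of genes higher in the members than of genes lower in them. The shift is therefore not read as a result about the genes. The part of the filter in it was not tested, and the number of genes compared after thinning is not given. Counts of list members are to be read against the shares of all genes before thinning. Both comparisons use the same 144 cells, so they are given side by side and not correlated.

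The genes listed for break formation, among them ZCWPW1, ZCWPW2 and HELLS, which act with PRDM9 or its marks, were mostly higher in the members than in spermatogonia. Of 8 comparable genes outside the rule, 6 exceeded the spermatogonial level by 2-fold or more and 0 lay below it by as much (median log2 ratio 1.42, with 10 CPM added to each level). MEI1, a factor required for break formation, stood at 15.6 CPM in spermatogonia, 72.0 in the members and 2.78 in pachytene cells. TOP6BL, the partner subunit of SPO11, stood at 29.1, 110 and 3.91 in the same order. Both therefore peaked in the members, at 4.62 times (3.39 to 6.31) and 3.77 times (2.98 to 4.78) the spermatogonial level. Other axis-bound break factors stayed high in pachytene cells. ANKRD31 was at 147 CPM in the members and 91.6 in pachytene cells, IHO1 at 116 and 86.7, and REC114 at 64.3 and 72.0.

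ZCWPW1, which reads the histone marks that PRDM9 writes, showed one of the steepest contrasts. It stood at 256 CPM in spermatogonia, 1065 in the members, 10.7 in pachytene cells, 17.6 in late spermatocytes and 18.0 in stroma. The level in pachytene cells was thus no higher than in stroma, and its ratio to pachytene cells (interval 85.6 to 117) became 320 when 3 marker genes were required in every class. That setting asked for all 3 marker genes in pachytene and late cells, but for 3 of 4 in members and spermatogonia. It redefined the pachytene class as well, and the number of pachytene cells left is not given. Its relative ZCWPW2 ran the other way between the same classes, at 44.7 CPM in the members and 121 in pachytene cells, a ratio of 0.369 (0.283 to 0.473). HELLS, a chromatin remodeller that works with PRDM9, was at 641 CPM in spermatogonia, 768 in the members and 18.5 in pachytene cells.

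Among the genes of break processing and strand invasion, 1 stood apart from the rest. RAD51AP2, a gene of germ cells, was at 8.22 CPM in spermatogonia, 2324 in the members, 99.7 in pachytene cells, 22.5 in late spermatocytes and 9.82 in stroma. Its ratio to spermatogonia was 283 (206 to 398), the top-ranked of all named genes in that comparison, and 587 in thinned cells. Its ratio to pachytene cells was 23.3 (22.0 to 24.7), but 12.3 in thinned cells and 131 when 3 marker genes were required. It was seen in 101 of 144 members (70.1%, 62.0% to 77.5%), in 17 of 356 spermatogonia and in 48 of 2178 stromal cells. It was not confined to the members among spermatocytes, with a UMI in 110 of 525 pachytene cells and 338 of 2114 late spermatocytes. At 2000 UMIs per cell it was seen in 59.9% of members, 0.865% of spermatogonia and 1.15% of stroma. Within members the level ranged from 0 to 148 per 10000 UMIs with a median of 15.6, and 43 members had no UMI of it.

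The rest of this list differed less from spermatogonia. Of the 19 comparable genes of the list, RAD51AP2 included, 4 were at least 2-fold higher than in spermatogonia, 1 was lower and the median log2 ratio was 0.41. SPATA22, which binds MEIOB, was at 88.1 CPM in spermatogonia, 608 in the members and 1080.4 in pachytene cells. BRME1, of the complex that loads recombinases through BRCA2, was 5.98 times (4.27 to 8.45) its spermatogonial level, and MCMDC2, a meiotic helicase relative, 3.96 times (2.56 to 6.16). BLM, the helicase that undoes recombination intermediates, was the 1 lower gene, at 72.5 CPM in spermatogonia and 32.8 in the members. Against pachytene cells 14 of the 19 were at least 2-fold higher and 0 lower. BRCA2 was at 532 CPM in the members and 36.2 in pachytene cells, MND1, a strand-exchange cofactor, at 321 and 35.1, and the nuclease MRE11 at 99.2 and 11.7.

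Crossover factors were at least 2-fold higher in the members than in spermatogonia for 9 of 12 comparable genes and lower for 0. For 6 of the 12 the members exceeded both neighbouring classes by that much, beside 6.52% of the 7775 genes compared with both. They include the ZMM proteins, which stabilise recombination intermediates. SHOC1 was at 4.00 CPM in spermatogonia, 122 in the members and 1.72 in pachytene cells. Its partner SPO16 was at 27.0, 132 and 5.38. MSH4 and MSH5, which form a sliding clamp on joint molecules, were 43.1 times (15.9 to 164) and 7.07 times (5.35 to 9.41) the spermatogonial level. HFM1, a helicase, was at 7.80 CPM in spermatogonia, 112 in the members and 76.5 in pachytene cells, while CNTD1, a cyclin-like crossover factor, went from 14.5 to 138 and then 186. The ubiquitin or SUMO ligase genes CCNB1IP1 and RNF212B were at 208 and 95.7 CPM in the members and at 11.5 and 3.37 in pachytene cells.

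All 4 meiotic cohesin genes were at least 2-fold higher in the members than in pachytene cells, and 3 of 4 than in spermatogonia. RAD21L1, a kleisin subunit, was at 7.16 CPM in spermatogonia, 111 in the members and 6.21 in pachytene cells. SMC1B was at 756, 1662 and 274, and STAG3 at 131, 289 and 137. REC8, the other meiotic kleisin, differed: it was at 74.8 CPM in spermatogonia, 64.3 in the members and 1.54 in pachytene cells. The REC8 level of the members came mostly from cluster 1, the 39-cell cluster of the 4 into which the members fell, with 81 of the 92 UMIs. It was at 154 CPM in that cluster and at 17.6, 23.4 and 0 in clusters 2, 3 and 4.

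The synaptonemal complex genes were the group with the highest median ratio to spermatogonia among the meiotic lists, log2 2.39 beside -0.02 over all genes. Of 11 genes, 10 were at least 2-fold higher and 0 lower. SYCP1, the transverse filament, stood at 27.0 CPM in spermatogonia, 1345 in the members, 314 in pachytene cells and 85.1 in late spermatocytes. SYCP2, an axis protein, stood at 24.9, 908, 469 and 125. SYCP3, its partner, was already at 323 CPM in spermatogonia and reached 1249 in the members. SYCP1 and SYCP2 were 49.9 times (41.7 to 60.1) and 36.5 times (30.2 to 44.5) the spermatogonial level, and SYCP3 was 3.86 times (3.61 to 4.14). TRIP13, the ATPase that removes HORMAD proteins from synapsed axes, was the 1 gene of the list under 2-fold, at a ratio of 1.07 (0.918 to 1.25).

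Against pachytene cells the complex split. SYCP1, SYCP3, TEX12 and TRIP13 were at least 2-fold higher in the members, and HORMAD2, which marks unsynapsed axes, was lower, at a ratio of 0.488 (0.423 to 0.561). HORMAD1 was the same within counting error, at 891 and 864 CPM (ratio 1.03, 0.973 to 1.09). SIX6OS1, a central element gene, was at 339 and 403 CPM (ratio 0.841, 0.766 to 0.923), but its ratio was 1.23 when 3 marker genes were required.

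Telomere attachment genes, whose products tie chromosome ends to the nuclear envelope for pairing, were higher than in spermatogonia for 5 of 7. TERB1 was at 62.6 CPM in spermatogonia, 307 in the members and 57.2 in pachytene cells, and MAJIN at 38.3, 266 and 86.9. TERB2, which bridges them, and SPDYA, the activator of CDK2 at telomeres, were higher again in pachytene cells. TERB2 went from 17.5 to 159 to 383 CPM, and SPDYA from 24.4 to 374 to 1045 CPM. CDK2 itself was the 1 lower gene, at 73.7 CPM in spermatogonia and 28.0 in the members.

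**Figure D2:**
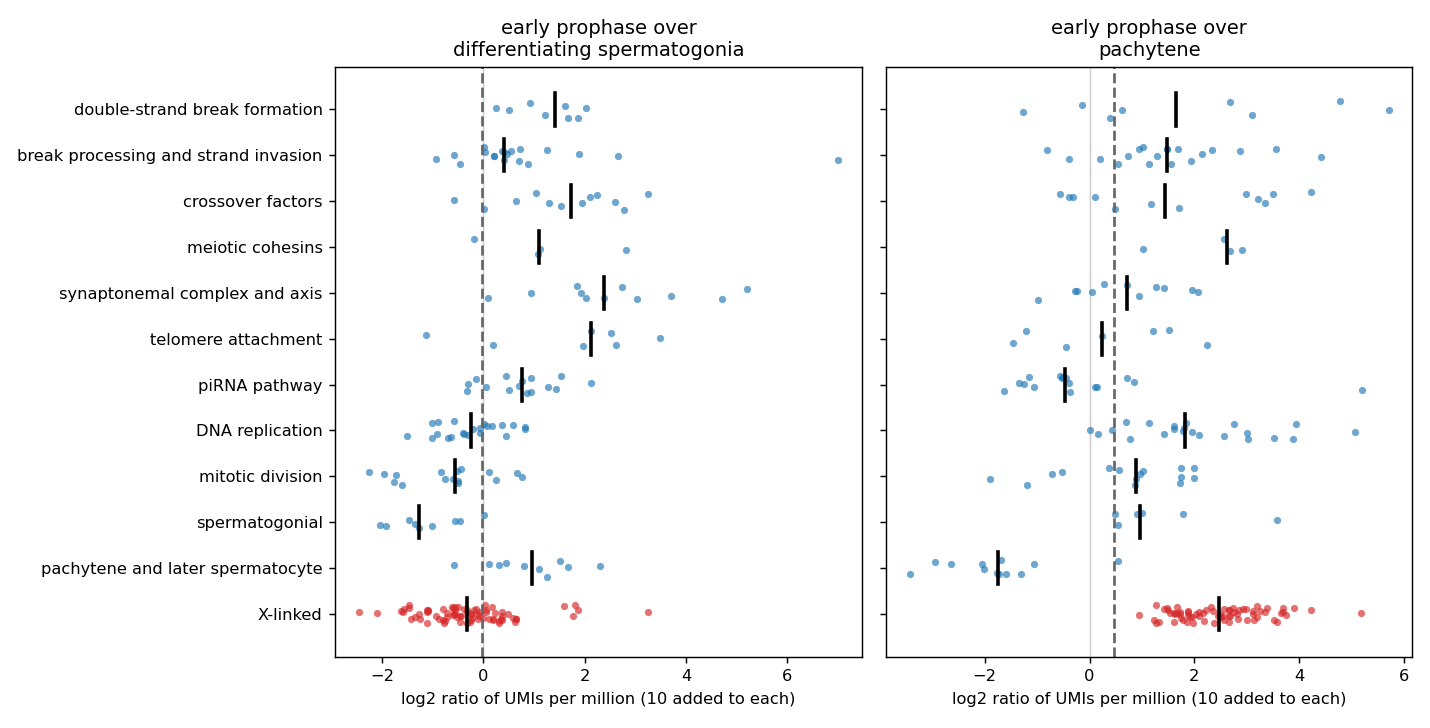
Points are genes of each list and bars the list medians; the x axes give the log2 ratio of CPM, with 10 added to each, of the early prophase cells over differentiating spermatogonia (left) and over pachytene cells (right), and dashed lines mark the median of all genes compared (-0.02 and 0.48). Synaptonemal complex genes had a median of 2.39 on the left and X-linked genes (red) of 2.47 on the right.

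Genes of meiotic entry differed in direction. STRA8, the retinoic acid target that starts the meiotic programme, was at 47.2 CPM in spermatogonia, where it helped to choose the class, 39.8 in the members and 0.296 in pachytene cells. Of its 57 UMIs in the members 52 lay in cluster 1, with 1, 4 and 0 in clusters 2, 3 and 4. MEIOSIN, its partner, was at 45.1, 128 and 4.08, and the RNA-binding entry factors MEIOC and YTHDC2 at 2.41 times (2.22 to 2.62) and 2.98 times (2.51 to 3.53) the spermatogonial level. DMRT1 was lower, at 731 CPM in spermatogonia, 236 in the members and 2.90 in pachytene cells. SOHLH1, a spermatogonial differentiation factor, was at 161, 28.0 and 4.14. Both values depend on the 11 members low in synaptonemal complex genes: without them DMRT1 was at 149 CPM and SOHLH1 at 12.8. The DMRT1 ratio to spermatogonia, 0.323 (0.288 to 0.361), was 0.199 in thinned cells and 0.113 with 3 marker genes required. Of 9 comparable spermatogonial genes, 6 were at least 2-fold lower and 0 higher. UCHL1 was at 162 and 32.1 CPM, and UTF1 at 56.7 and 7.69.

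Summed over all members, replication genes were near the spermatogonial level, and they were far lower in the later class. The members were not alike in this. The list summed to 4331, 4657 and 3957 CPM in clusters 1, 3 and 2, and to 1750 CPM in cluster 4. Spermatogonia were at 3983 CPM and pachytene cells at 939 CPM. Of 22 comparable genes, 0 were at least 2-fold higher than in spermatogonia and 4 were lower, among them MCM4 and MCM5 of the replicative helicase, at 0.311 (0.242 to 0.395) and 0.458 (0.367 to 0.566) of that level. Against pachytene cells 18 of 22 were higher and 0 lower. CLSPN, a checkpoint mediator at replication forks, was at 272 CPM in spermatogonia, 490 in the members and 4.97 in pachytene cells. CDC6, an origin licensing factor, was at 89.7, 167 and 1.48. With 3 marker genes required, the ratios of CLSPN and CDC6 to pachytene cells went from 98.6 to 293 and from 113 to 245, and that of CDC6 was 71.8 in thinned cells. RRM2 and TYMS, enzymes of nucleotide supply, were at 77.6 and 74.8 CPM in the members and 0.947 and 0.414 in pachytene cells.

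Genes of mitotic division were lower than in spermatogonia for 5 of 16 and higher for 0. MKI67 was at 587 CPM in spermatogonia and 144 in the members, and the B-type cyclin gene CCNB1 at 273 and 75.5. A few cells carried much of what was left: 5 members held 87.5% of the UMIs of UBE2C, a ubiquitin-conjugating enzyme gene of mitotic exit. The ratio of MKI67 to pachytene cells, 3.93, was 1.35 in thinned cells and 1.08 when 3 marker genes were required. TOP2A, a topoisomerase of replicating and condensing chromosomes, was an exception at 1252 CPM in spermatogonia, 1499 in the members and 438 in pachytene cells.

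The piRNA pathway, which silences transposons in the male germ line, was higher than in spermatogonia for 7 of 15 genes and lower for 0. DDX4, the germ-cell RNA helicase, was at 201 CPM in spermatogonia, 503 in the members and 660 in pachytene cells. ASZ1, a scaffold of the germinal granules between mitochondria, was at 18.3, 113 and 105. PIWIL1, the Piwi protein of pachytene piRNAs and a gene of the rule, was at 25.1, 85.3 and 883. Against pachytene cells 1 of 16 was higher and 5 were lower. The higher gene was TEX15, needed for piRNA-directed silencing, at 446 CPM in spermatogonia, 615 in the members and 7.10 in pachytene cells, a ratio of 86.6 (71.5 to 106) that was 44.6 in thinned cells and 183 with 3 marker genes required. TEX19, another gene of transposon control, was at 4.21 CPM in spermatogonia and 58.7 in the members, and had no UMI in pachytene cells. The exact interval puts the ratio of TEX19 to pachytene cells at 263 or more; set against the 3 counts that a 0 allows over that class, the ratio is 331.

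Histone genes differed by kind. Of 9 comparable genes, 4 were at least 2-fold higher than in spermatogonia and 1 lower. The linker histone H1-1 was at 331 CPM in spermatogonia, 679 in the members and 7.04 in pachytene cells, a ratio to pachytene of 96.4 (79.6 to 118) that was 55.9 in thinned cells, 154 after removal of high doublet scores and 221 with 3 marker genes required. H1-3, a somatic linker histone, was at 232, 79.0 and 5.92. The testis-specific genes had the opposite order: H1-6 was at 201, 512 and 1038 CPM, and H2BC1 at 109, 631 and 1546, with stroma at 18.3 and 30.2. H2AX, whose protein is phosphorylated at breaks, was nearly level at 135, 175 and 141 CPM.

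**Figure D3:**
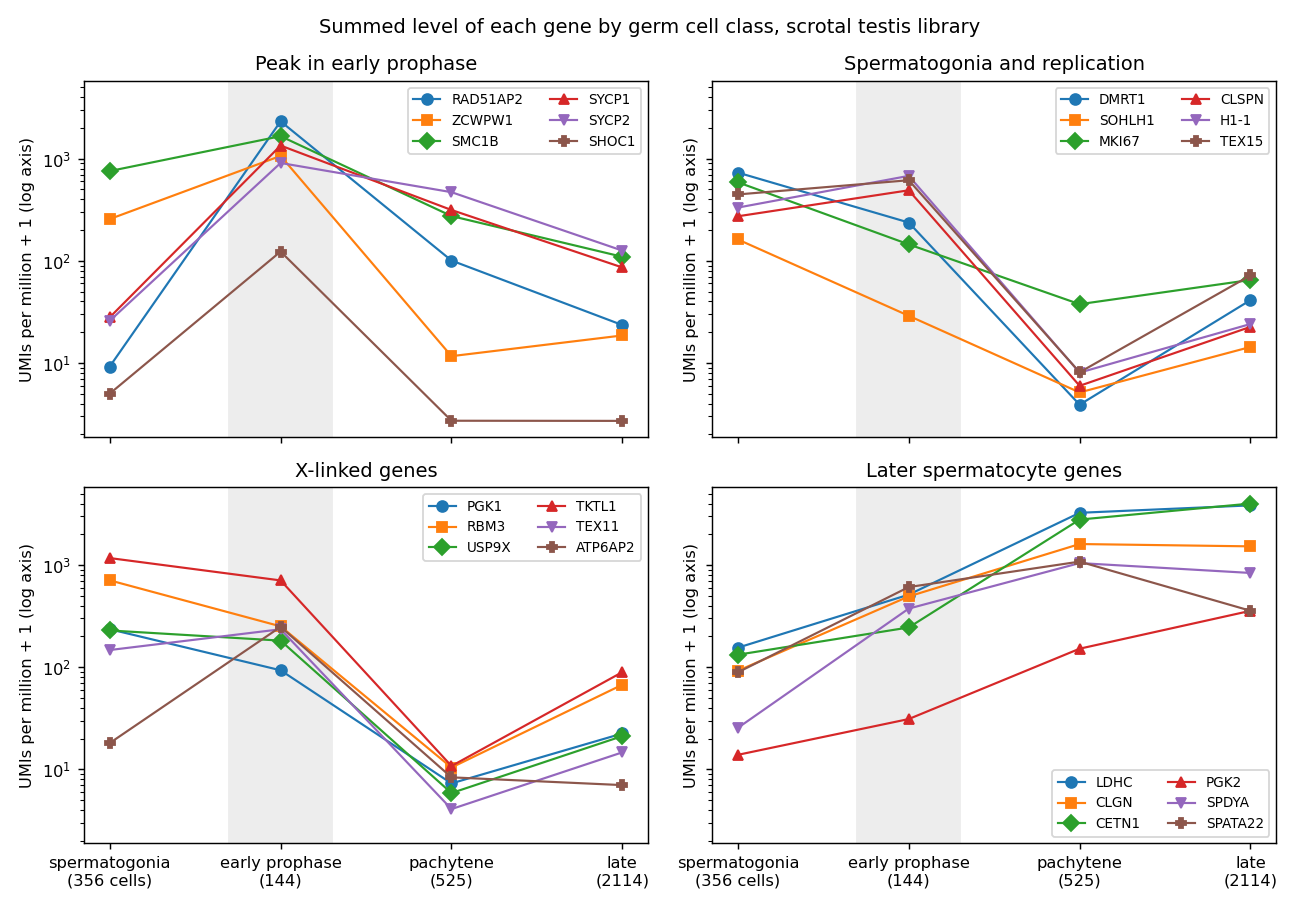
Each panel plots CPM plus 1 on a log axis for 6 genes across 4 classes of the scrotal library, ordered from spermatogonia to late spermatocytes, with the early prophase cells shaded. RAD51AP2 went from 8.22 to 2324 and then 99.7 CPM, whereas the X-linked gene PGK1 went from 234 to 92.2 and then 6.27.

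X-linked genes were still read in the members at a level nearer to that of spermatogonia than of pachytene cells. The 92 listed genes summed to 10375 CPM in spermatogonia, 7279.9 in the members, 474 in pachytene cells and 1590.5 in late spermatocytes, beside 13378 in stroma. The members were at 0.702 (0.687 to 0.717) of the spermatogonial sum and at 15.3 times (14.9 to 15.8) the pachytene sum. The second ratio depended on the cells taken: 8.04 in thinned cells, 22.1 without high doublet scores, and 25.4 when 3 marker genes were required. Of the pachytene cells 24 (4.57%) held at least 50 X-linked UMIs per 10000, a limit set after seeing the values, and these gave 22.7% of the class's X-linked UMIs. In the late class 377 cells (17.8%) reached that limit and gave 63.7%, and 101 of them also met the spermatogonial rule. The ratio to the late class, 4.58 (4.48 to 4.67), was 6.05 without cells shared with spermatogonia and 2.80 in thinned cells.

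By single genes the contrast with pachytene was uniform. All 70 comparable X-linked genes were at least 2-fold higher in the members, beside 39.9% of all genes compared, and 91 of the 92 were higher at any size. The exception was BRCC3, with no UMI in the members and 0.178 CPM in pachytene cells, below what could be compared. The lowest ratio was that of RPL39, 3.11 (2.08 to 4.54), and the highest that of PDHA1, a subunit of pyruvate dehydrogenase, 81.2 (47.8 to 147). PGK1, a glycolytic enzyme, was at 234 CPM in spermatogonia, 92.2 in the members and 6.27 in pachytene cells. TKTL1, a transketolase-like gene, was at 1171, 707 and 9.76, and its ratio to pachytene of 72.4 was 35.9 in thinned cells and 148 without high doublet scores. TEX11, an X-linked crossover factor, was at 234 CPM in the members and 3.08 in pachytene cells, and at 1.60 times (1.40 to 1.83) its spermatogonial level. Its ratio to pachytene cells, 76.1, was 33.5 in thinned cells and 173 with 3 marker genes required.

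Between spermatogonia and the members, X-linked genes were not uniform. Of 76 comparable genes 19 were at least 2-fold lower and 5 higher, beside 11.7% and 13.8% of all genes. Among the lower ones RBM3, a cold-inducible RNA-binding protein, was at 708 CPM in spermatogonia and 250.2 in the members, and its ratio to pachytene cells of 26.6 was 13.5 in thinned cells and 64.0 without high doublet scores. The homeobox genes RHOXF1 and RHOXF2 were at 0.154 (0.118 to 0.199) and 0.212 (0.171 to 0.259) of the spermatogonial level. The 5 higher genes were ATP6AP2, ATP6AP1, UBE2A, UPF3B and TAF7L. ATP6AP2, an accessory subunit of the vacuolar proton pump, was at 17.1 CPM in spermatogonia, 247 in the members and 7.34 in pachytene cells, and TAF7L, a germ-cell transcription factor subunit, was at 19.2, 91.5 and 2.66.

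Genes listed as autosomal counterparts of X-linked genes were lower in the members than in pachytene cells for 6 of 9 and higher for 1. The list also holds relatives such as EIF1 and HNRNPF, so this is not a count of germ-cell copies that stand in for silenced genes. PGK2, the germ-cell copy of PGK1, was at 12.9 CPM in spermatogonia, 30.1 in the members, 151 in pachytene cells and 356 in late spermatocytes. PDHA2 was at 27.0, 66.4, 301 and 821, and the centrin gene CETN1 at 131, 244, 2789.9 and 4004. Stroma, which should lack these autosomal copies, held PGK2 at 60.5 CPM, PDHA2 at 67.0 and CETN1 at 305. No limit on protamine and transition protein UMIs was set for stroma. Summed over all members, the levels of all 3 are below this background and are not read as expression. Cluster 4 of the members had PDHA2 at 111 CPM and CETN1 at 425, above stroma, and PGK2 at 52.8, below it. The part of free RNA in these values was not tested.

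Genes of pachytene and later spermatocytes were lower than in pachytene cells for 11 of 12 outside the rule, and above spermatogonia for 6 of 10. LDHC, the germ-cell lactate dehydrogenase, was at 154 CPM in spermatogonia, 512 in the members, 3250.2 in pachytene cells and 3843 in late spermatocytes, and it was seen in 85.4% of members. Stroma held LDHC at 232 CPM and in 60.0% of cells. CLGN, a chaperone of the endoplasmic reticulum in spermatocytes, was at 91.2, 492 and 1607 CPM in the first 3 of these classes and at 81.9 in stroma. ADAM2, a sperm surface protein gene, was at 5.69, 23.8 and 353, with stroma at 10.9.

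Of the 7775 genes compared with both classes, 507 (6.52%) were at least 2-fold higher in the members than in either, and 74 (0.952%) lower than in either. The 507 include 2 of 5 comparable stromal markers and 3 of 4 myoid markers. They also include TIMP1, IGFBP6 and DCN, for which 5 members held 91.1%, 95.1% and 86.3% of the members' UMIs. A further 234 (3.01%) were above spermatogonia and below pachytene cells, and 273 (3.51%) the reverse. Among the genes of the first kind, CT47C1 stood at 2.53 CPM in spermatogonia, 124 in the members and 1.66 in pachytene cells. SCML1, a Polycomb-group protein, stood at 73.7, 495 and 15.9, and FMR1NB, a cancer-testis antigen, at 159, 885 and 40.8. PEG10, a retrotransposon-derived imprinted gene, stood at 36.4, 210.4 and 5.03. INCA1, an inhibitor of CDK-cyclin complexes, stood at 7.16, 175 and 5.56.

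The 10 genes ranked highest over pachytene cells began with XAGE3, PRR20G, OTUD6A and CT45A10. XAGE3 was at 102 CPM in the members and had 3 UMIs in all pachytene cells, 0.178 CPM, giving a ratio of 575 (193 to 2819). OTUD6A was at 268 and 1.83 CPM, and ZNF280C at 279 and 2.72. XAGE3, CT45A10, OTUD6A and ZNF280C lie on the X chromosome in human. XAGE, CT45, CT47 and PRR20 are multicopy families, so reads may have been split among near-identical copies and the values of these members are uncertain. The other names of this rank were ZCWPW1, H1-1, CLSPN, CDC6 and TEX15.

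The 10 ranked lowest against pachytene cells were led by PPP3R2, the testis form of the calcineurin B subunit, at 63.6 CPM in the members and 2349.9 in pachytene cells, a ratio of 0.0271 (0.0218 to 0.0332). Its stromal level, 96.8 CPM, exceeded that of the members. PEBP4 was at 30.1 against 861 CPM, and ZMYM6NB at 47.5 against 1489, with stroma at 131 and 98.7. PROK2, PCDHB8, FEZF1, LYL1, SLC22A16, LIN7A and SLC9C1 had 1 to 9 UMIs each in all members and between 104 and 235 CPM in pachytene cells.

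Over spermatogonia the top 10 held 5 genes of the meiotic lists, RAD51AP2, SYCP1, SYCP2, SHOC1 and SIX6OS1. The others were ANKRD30BL, CT47C1, GML, C18H18orf63 and INCA1. GML was at 16.4 CPM in spermatogonia and 420.0 in the members, where 5 cells gave 37.3% of its UMIs. The lowest 10 began with INSL3, the Leydig cell hormone, at 301 CPM in the spermatogonial class and 2.80 in the members. Of those spermatogonial UMIs 98.6% came from 5 cells, so this contrast describes those cells. Next were ASB9, RHOXF1, the tubulin gene TUBA1B (603 and 109 CPM), UBE2C, SOHLH1, MARCKSL1, the cyclin gene CCND1 (272 and 55.2 CPM), RHOXF2 and GMPR.

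Markers of most other cells were low. T or NK markers had a UMI in 3 members, Leydig markers in 9, Sertoli markers in 12, endothelial markers in 14 and macrophage markers in 68, and none of these sums reached 20 per 10000. C1QA and C1QB, which define macrophages, and PECAM1 and CDH5 of endothelium were at 0. Other genes of these lists were not: EGFL7 was at 219 CPM in the members and 46.3 in stroma, and CD163 at 64.99 and 6.29. The 6 endothelial genes summed to 231 CPM in the members, 299 in spermatogonia and 33.6 in pachytene cells, and the 7 macrophage genes to 81.1, 43.8 and 47.5. Their part in the results was not tested. Myoid markers had a UMI in 14 members and reached 20 per 10000 in 3. Stromal markers had a UMI in 34 members and reached 20 per 10000 in 7, with a maximum of 202. Without those 7 the X-linked ratios were 14.8 to pachytene cells and 0.675 to spermatogonia, and 3248 genes were higher and 1518 lower than in pachytene cells.

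Clustered alone, without the rule genes, the members fell into 4 clusters of 39, 36, 35 and 34 cells. The clusters were made from these cells' genes, so their levels are a description and have no test, and they are called by number. At a resolution of 0.3 the sizes were the same, and at 1 there were 5 clusters.

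Cluster 1 (39 cells) had the highest sum of the spermatogonial genes, 730.1 CPM against 422, 246 and 87.1 in clusters 3, 2 and 4. DMRT1 was at 582 CPM in it and at 63.6, 30.8 and 15.8 in clusters 3, 2 and 4. All 24 members whose spermatogonial marker sum exceeded their rule sum, all 11 members low in synaptonemal complex genes and all 7 with stromal markers were in it, as were 7 of the 8 members with high doublet scores. Stromal genes led its ranking, DCN at 1146 CPM against 11.1 in the other members. Without the 7 cells DMRT1 was at 699 CPM, STRA8 at 111, REC8 at 186 and MKI67 at 399. SYCP1 was at 61.4 and RAD51AP2 at 80.2 in the remaining 32 cells.

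Cluster 3 (35 cells) was led by replication-linked and other histone genes, H1-1 at 2358 CPM against 235 in the other members, with H2AC12 and H2AC20, and by TEX19. SMC1B (2994 CPM) and the central element gene SYCE3 (2168 CPM) were highest there, while SYCP1 was at 83.6 CPM. Cluster 2 (36 cells) had the highest levels of SHOC1 (414 CPM), HFM1 (321), SYCP2 (2099.5) and PRDM9 (216), with PRDM9 seen in 23 cells. RAD51AP2 was at 4599.6 CPM in cluster 2 and at 726 in cluster 3, and it was seen in 36 of 36 cells of cluster 2 and 21 of 35 of cluster 3. PRM2, of the spermatid genes seen in every member, was also among the leading genes of cluster 2 at 2469 CPM against 612.

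Cluster 4 (34 cells) had RAD51AP2 at 5037 CPM and SYCP1 at 3543 CPM, the highest of the 4 clusters. It was led by SPATA8, RFX4, GML, ANKRD7 and ART3. LDHC was at 1367 CPM there, against 144, 207 and 339 in clusters 1, 3 and 2, and H2BC1 at 1307. PRDM9 had 0 UMIs in its 34 cells, which allows up to 7.92 CPM, and ZCWPW1 was at 261 CPM against 1879 in cluster 2. SPO11 kept 14 UMIs in it, 37.0 CPM, beside 74.8 in cluster 2.

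**Figure D4:**
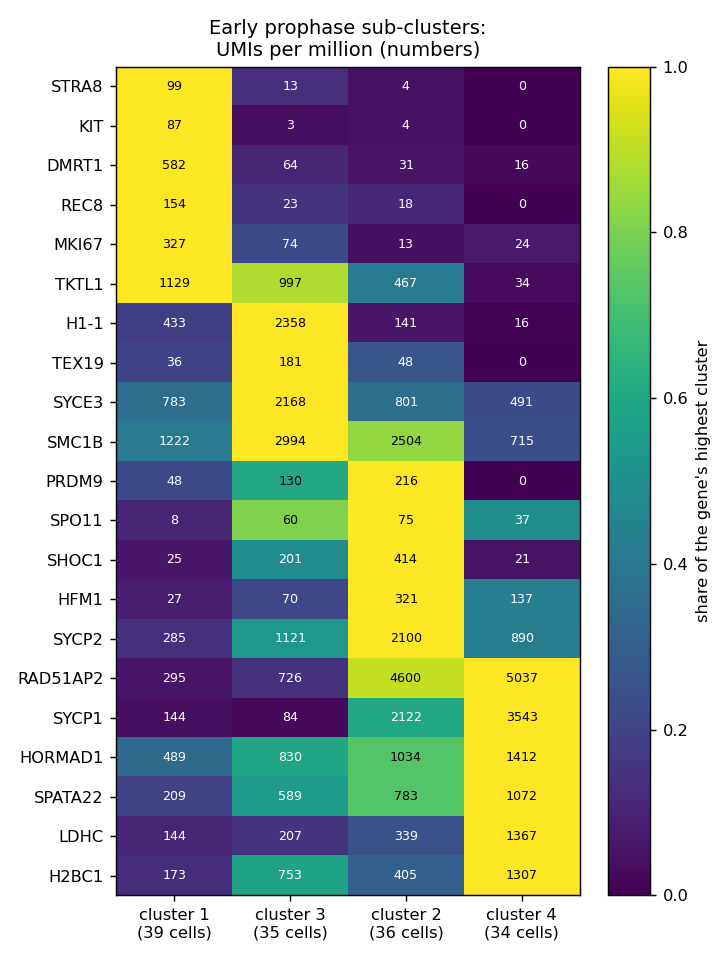
Rows are genes and columns the 4 clusters of the 144 early prophase cells; numbers are CPM and colours the share of each gene's highest cluster. RAD51AP2 was at 295, 726, 4599.6 and 5037 CPM in clusters 1, 3, 2 and 4, and PRDM9 at 47.5, 130.5, 216 and 0.

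The X-linked sum differed among the clusters as well. It was 9953 CPM in cluster 1, 7269 in cluster 3, 7998 in cluster 2 and 3147 in cluster 4, where the median cell held 28.3 X-linked UMIs per 10000 against 74.9 in cluster 2. Clusters 1, 2 and 3 were at 3.16 (2.97 to 3.37), 2.54 (2.36 to 2.74) and 2.31 (2.15 to 2.48) times cluster 4. Of the 92 genes 71 were higher in cluster 2 than in cluster 4. Cluster 4, at the lowest X-linked level, was still above the 474 CPM of pachytene cells. The list of pachytene and later spermatocyte genes summed to 2917 CPM in it, against 1950 in cluster 2, 1238 in cluster 3 and 818 in cluster 1. Its genes were not uniform: CLGN was highest in cluster 2, at 999 CPM against 520.0 in cluster 4, and CDC25C in cluster 3, at 144 against 18.5. A set of CLGN, LDHC, SPDYA, CETN1, ADAM2 and SPAG6 was summed for correlation over the 144 cells. All but SPDYA and CETN1 are also in this list, so the set is not separate from it. The X-linked level went with that set at a Spearman rho of -0.55, and RAD51AP2 with the synaptonemal complex genes at 0.65. These correlations describe cells of 1 library that share depth and free RNA. With UMIs the rho was 0.17 for the X-linked level and -0.35 for the set from CLGN to SPAG6.

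In the abdominal library the same rule found 2 of 12352 barcodes, 0.0162% (0.00196% to 0.0585%). One had 4941 UMIs with 6 of MEIOB, 1 of PRDM9, 3 of RAD51AP2 and 1 of SYCP1. The other had 15510 UMIs with 3 of DMC1, 2 of MEIOB and 26 of SYCP3, and none of RAD51AP2 or SYCP1. The classes for pachytene cells, late spermatocytes and differentiating spermatogonia held 4, 15 and 16 cells there, against 525, 2114 and 356 in the scrotal library, and stroma 7183 against 2178. Levels were not compared between positions, as 2 cells give no usable sum.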

How the data were processed

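The authors deposited raw counts of UMIs, 1 matrix for each library, with no scaling. Per the file headers the software was Cell Ranger 5.0.0. Version 3.0.1 and the mouse build mm10 stand in the submitters' processing notes. The feature names are macaque symbols, so the build is unclear and no coordinates or sequences are given. Of 28845 features, 721 of 11526 with a LOC name received a symbol from a RefSeq gene table.

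Cells were taken by the rule in the report from barcodes with at least 500 genes. UMIs were summed per class, scaled to counts per 1000000 UMIs (CPM), and compared with exact conditional binomial 95% intervals (scipy 1.17.1); log2 values use a pseudocount of 10 CPM. A class at 0 was set to 3 counts. Named genes were the 10 highest and 10 lowest per comparison by the interval bound nearest to no change, where the higher class reached 100 CPM and 30 UMIs, and all members of the lists. Genes given for the group higher than both classes were chosen after their values were seen. Doublets were scored against simulated pairs and kept in the main values; in a test 65.0% of 300 added pairs were removed, and 8.03% of 4000 cells. Shares of cells were also computed after thinning to 2000 UMIs, which left out 7 members. Sub-clusters were made with scanpy 1.11.5 and leidenalg 0.10.2 on 1000 variable genes. On simulated data, 95.5% and 95.7% of intervals of unchanged genes held a ratio of 1 for the pachytene and spermatogonial comparisons, and 100% and 98.0% of 4-fold changes were called. The members and gene lists were chosen with earlier results of these data known. Results for some genes of the lists are not reported here.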

Additional observations from a re-analysis of the deposited data

How the results depend on the processing

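A minimum of 200 genes per barcode left the number of members, the gene counts and the X-linked ratios near their main values; a minimum of 1000 genes gave a share of 1.17% of barcodes. Requiring 3 marker genes left 54 members (0.360%), gave 1640 genes lower than in spermatogonia in place of 1013, and X-linked ratios of 25.4 to pachytene cells, 0.666 to spermatogonia and 8.06 to late spermatocytes; SIX6OS1 turned to 1.23 over pachytene cells. In that setting pachytene and late cells needed all 3 of their marker genes, and members 3 of 4. A rule sum of at least 5 per 10000, run for the number and share alone, gave 0.793%. Removing high doublet scores gave X-linked ratios of 22.1 and 0.676 to pachytene cells and spermatogonia, and thinning 8.04 to pachytene and 2.80 to late cells. In 2 alternatives chosen after seeing the data, X-linked ratios were 14.8, 0.675 and 4.41 (pachytene, spermatogonia, late) without members with stromal markers, and 16.4 and 6.05 (pachytene, late) without cells also in the spermatogonial class. The cause of these shifts was not tested. For 34 named genes, 404 of 510 values stayed within their counting interval, 105 moved, 50 values by over 1.5 times, and 1 reversed. The settings differed widely in this. Requiring 3 marker genes kept only 18 values, moved 49 and reversed 1. Thinning kept 26 and moved 42. Removing high doublet scores kept 58 and moved 10, and removing cells also in the spermatogonial class kept 30 and moved 4. All 68 values stayed under each other setting run on these genes, which changed the gene limit, the scaling or the stromal-marked members. No paired analysis was possible because each position had 1 library. Depth limits genes near 1 UMI per cell.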
